A study of Rattus norvegicus with 47 samples.

Results

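Genes of the proteasome and of the enzymes that attach or remove ubiquitin were followed in rat testis over the first day after a single dose of 2-methoxyacetic acid (MAA), the testis-toxic metabolite of a glycol ether solvent. Their members were all probes of the array annotated with one gene symbol starting with Psma, Psmb, Psmc, Psmd, Psme, Uba and a number, Ube2, Usp and a number, or Uchl, with Uchl1 left out. This gave 144 of the 20500 probes with values, for 97 genes, of which 35 had several probes. They fall into 7 probes of 20S alpha subunits, 8 of constitutive and 3 of immune beta subunits, 6 of 19S ATPases, 14 of other Psmd genes, 4 of Psme activators, 9 of Uba, 27 of Ube2, 62 of Usp and 2 of Uchl genes. The other 2, Psmc3ip, a meiotic recombination factor, and Usp6nl, a regulator of Rab GTPases, belong by symbol only. Usp39 is a splicing factor, Psmd5, Psmd9 and Psmd10 are chaperones of proteasome assembly, and Uba2, Uba3 and Uba7 serve SUMO, Nedd8 and Isg15, relatives of ubiquitin.

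Sprague-Dawley males of 90 days received 650 mg/kg of MAA by intraperitoneal injection, and concurrent rats received saline. Testis parenchyma was taken 4, 8, 12 or 24 h later, from 6 rats per group and from 5 in the saline group at 4 h, 47 rats in all, each with one 2-colour array. The other dye of each array held one universal rat reference RNA, so values below are log2 ratios of testis over reference, called log ratios, and differences are log2 changes, MAA minus saline.

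Some features of the files bear on every value. The labels give testis RNA the dye Cy5, but in the array files testis lies in the channel headed Cy3: the spermatocyte markers had a median log2 ratio of Cy3 over Cy5 of 1.02, above 0 on 46 of 47 arrays, elongating spermatid markers had 0.93, above 0 on all 47, and markers of other organs had -1.59, above 0 on 0 of 47. Directions below therefore take Cy3 as testis, opposite to the labels. The series table was not used, since 39 of its 47 columns equal the ratio of another array than the one they name and 7 that of their own (tolerance 1e-06). The arrays of MAA rat 15 (8 h) and MAA rat 27 (12 h) hold the same Cy5 values, and without both 6 members passed at 12 h and 5 at 24 h, in place of 4 and 6. Of all probes 656 and 482 then passed, in place of 520 and 612. Median testis intensity ran from 431 to 1749 over the arrays, and 43.5% to 97.2% of probes were above background. Of the 144 probes, 77 were above background on all arrays and 31 on fewer than 24 of the 47.

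The proteasome is a barrel of alpha and beta rings, the 20S core, whose beta rings hold the cutting sites. A 19S cap with ATPases that unfold substrates, or a Psme activator, opens the alpha ring. Ubiquitin is passed from an activating enzyme (Uba) to a conjugating enzyme (Ube2) and onto the substrate with a ligase, and proteases of the Usp and Uchl families take it off. In the testis this system serves meiotic recombination, the removal of histones and the loss of cytoplasm in spermatids. MAA is known for killing pachytene spermatocytes.

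In saline testes the core subunits stood below the reference RNA, while the conjugating and deubiquitinating enzymes lay on both sides of it. Of the alpha probes 0 of 7 had a mean log ratio above 0 (median -0.56), and of the constitutive beta probes 1 of 8 (median -0.69), against 56.0% of all probes. The exception, 1 of 2 probes of Psmb2, was not above background on all arrays. The 7 alpha probes include Psma6, saturated in the testis channel on 44 of 47 arrays. Of all Usp probes 62.9% and of all Ube2 probes 59.3% were above 0, near that share. Among the probes above background on all arrays, 16 of 22 Usp probes and 12 of 19 Ube2 probes were above 0, with medians of 0.53 and 0.40, against 57.4% of all such probes with a median of 0.11. These are descriptions relative to a mixed-organ RNA, not amounts.

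The 4 lowest probes belonged to interferon-induced genes, Psme2, Usp18, Psmb9 and Psme1, though not every interferon-induced member was low. Psme2, a subunit of the PA28 activator that works with the immunoproteasome, had a mean log ratio of -2.08 ± 0.22 (SD, n = 23 saline rats), 4.22-fold below the reference. Its partner subunit Psme1 averaged -1.35 ± 0.31, and Psmb9 and Psmb8, catalytic subunits of the immunoproteasome, averaged -1.46 ± 0.22 and -0.84 ± 0.22. Usp18, which removes Isg15, averaged -1.68 ± 0.31 on probe 18340, while its dim probe 2789 averaged -0.21 ± 0.33. The remaining immunoproteasome subunit, Psmb10, averaged 0.0092 ± 0.31 on a probe above background on 3 of 47 arrays. Uba7, the Isg15-activating enzyme, averaged 0.069 ± 0.31 on probe 22000, above background on 34 of 47 arrays. At the other end, the highest means were 1.48 ± 0.17 on Usp1 probe 1591 and 1.48 ± 0.22 on Usp31 probe 22560. Other probes of both genes were lower. Usp16, a histone H2A deubiquitinase, averaged 1.34 ± 0.21. Ube2t, the conjugating enzyme of the Fanconi anaemia pathway of crosslink repair, averaged 1.22 ± 0.17, or 2.33-fold above the reference. Ube2n, which builds lysine-63 chains in DNA damage signalling, averaged 1.21 ± 0.10 on its brightest probe in the testis. Its probes 2138 and 17679 averaged 0.36 ± 0.20 and 0.48 ± 0.16. Usp7, a stabiliser of Mdm2 and p53, averaged 1.18 ± 0.37.

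**Figure D1:**
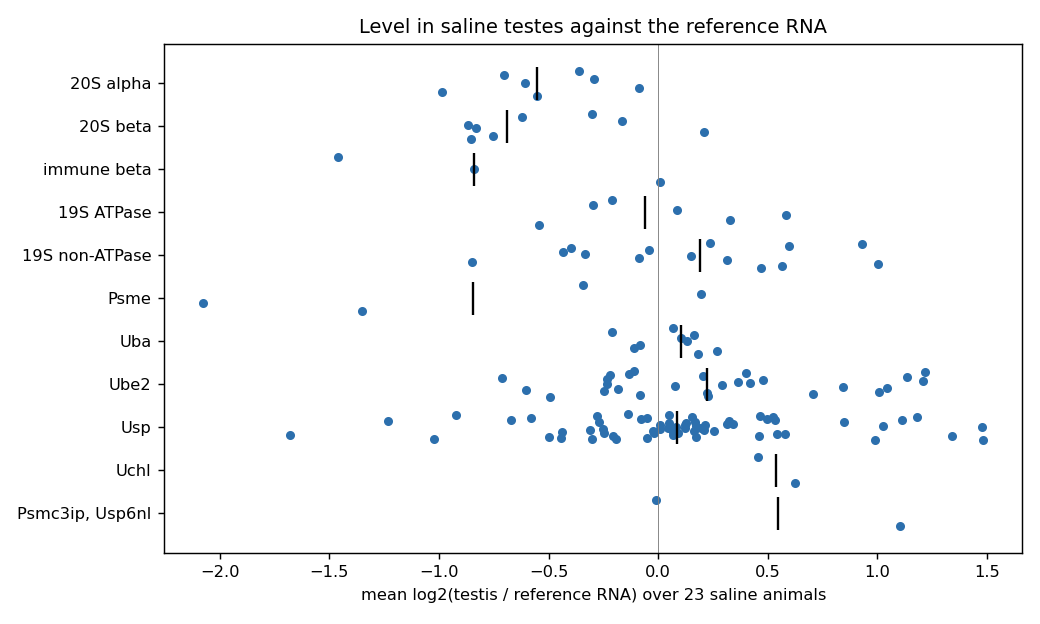
Mean log2 ratio of testis over reference RNA in 23 saline rats (x axis) for each of the 144 probes (points), by role (y axis), with the median of each role as a black line. All 7 alpha probes (the saturated Psma6 among them) and 7 of 8 constitutive beta probes lie left of 0, and 59.3% of Ube2 and 62.9% of Usp probes lie right of it, against 56.0% of all probes on the array.

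At 4 and 8 h after MAA no member passed the test. The test was limma on all 20500 probes with hybridisation date as a term, with Benjamini-Hochberg adjustment and a threshold of 0.05. It called 0 of 144 members at 4 h, against 0.0195% of all probes, and 0 of 144 at 8 h, against 0.00976%. At an unadjusted p under 0.05, limma gave 15 members at 4 h (7.4% of all probes) and 11 at 8 h (7.11% of all probes). The changes ran from -0.50 to 0.49 at 4 h and from -0.54 to 0.58 at 8 h, with median standard errors of 0.16 and 0.15.

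At 12 h, 4 of 144 members passed (2.78%, against 2.54% of all probes): Ube2n and Psme2 were higher in MAA testes, and Ube2t and Psmd3 were lower. At 24 h, 6 of 144 passed (4.17%, against 2.99% of all probes): Usp10, Usp9x, Ube2n, Psma5 and Ube2k were higher and Ube2t was lower. Both shares lie near those of the whole array. The split at 24 h depended on the scaling: 0 members were higher and 2 lower with median centring, 4 higher and 8 lower with the testis channel alone, and 2 higher and 3 lower with the deposited ratio. The same scalings called 193, 1075 and 378 of all probes at 24 h, against 612 in the test. The median change of the members was 0.0098, 0.028, 0.042 and 0.043 at 4, 8, 12 and 24 h, against 0.0054, 0.010, 0.037 and 0.021 for all probes. The F test of whether the MAA effect differs between the 4 times called 0 members (0.127% of all probes), and 21 at an unadjusted p under 0.05 (11.1% of all probes). Ube2t had its smallest adjusted p among the members, 0.108 (limma).

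**Figure D2:**
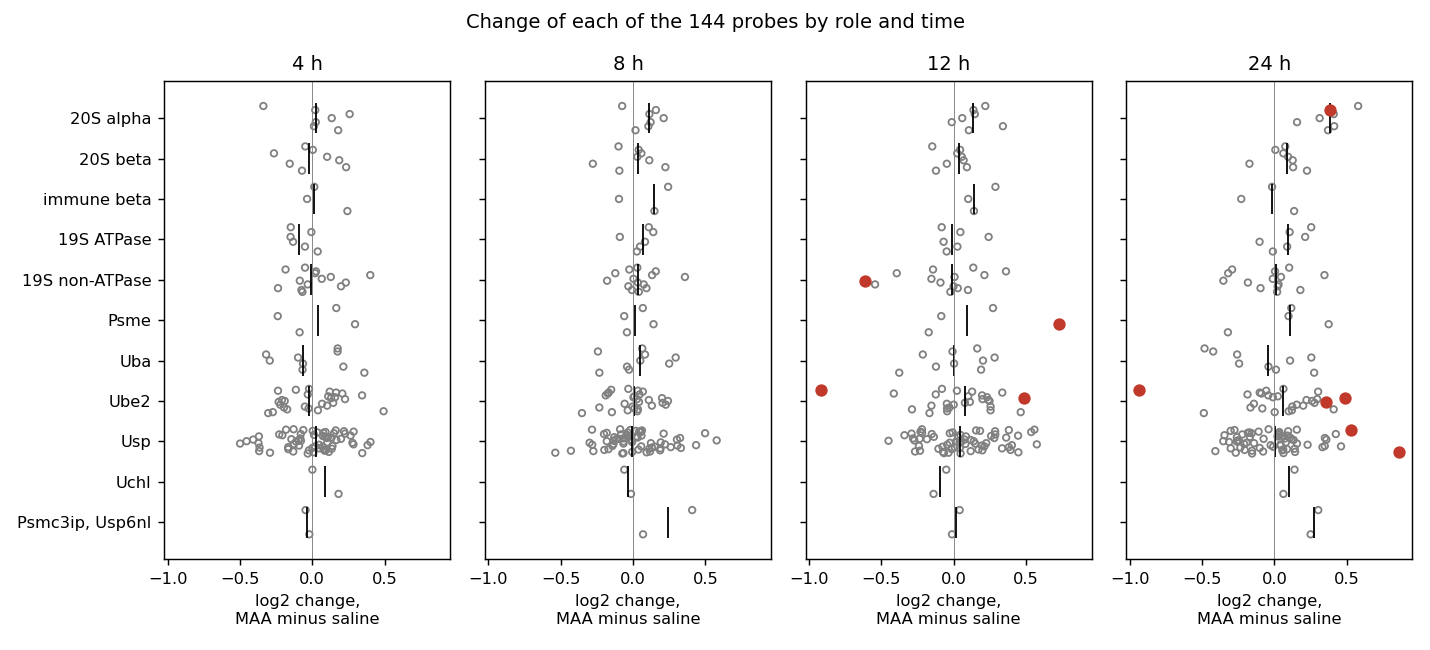
Log2 change, MAA minus saline, of each of the 144 probes (x axis) by role (y axis) at 4, 8, 12 and 24 h. Open grey circles did not pass the limma test, filled red circles did, and black lines are medians per role. Filled circles appear only in the panels for 12 h (4) and 24 h (6), and all 7 alpha probes, the saturated Psma6 among them, lie right of 0 at 24 h under this scaling.

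Among the conjugating enzymes, Ube2t had the largest difference of the members. At 12 h its log ratio was -0.17, 0.30 and 0.67 (lowest, median and highest of 6) in MAA rats, against 1.10, 1.32 and 1.36 in saline rats. At 24 h it was -0.57, 0.36 and 0.74 in MAA rats, against 1.02, 1.11 and 1.44 in saline rats. The groups did not overlap at either time, and 2 MAA rats at each time lay below 0. Ube2t fell by 0.92 ± 0.19 at 12 h (SE, 1.89-fold lower, adjusted p = 0.0053, limma) and by 0.93 ± 0.18 at 24 h (1.91-fold lower, adjusted p = 0.0023, limma). At 4 and 8 h its change was -0.11 ± 0.19 and -0.15 ± 0.18 and did not pass.

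Within each hybridisation date that held both treatments of the time, the Ube2t difference was -0.84 and -1.30 at 12 h and -1.21 and -0.69 at 24 h. The second of the 12 h values rests on 1 MAA rat, rat 36. Median centring, the testis channel alone and the authors' deposited ratio gave changes from -0.89 to -1.20, and each passed at both times. Without MAA rat 36 the 12 h change was -0.72 with an adjusted p of 0.089 (limma).

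Some of the spermatocyte markers fell at the same times as Ube2t, and others did not. Of the 8 measured genes of that list 4 fell at 12 h and 2 at 24 h, with 1 higher at 24 h and median changes of -0.57 and -0.30. Their median log ratio per array ran from 0.032 to 0.74 in MAA rats at 12 h, against 0.84 to 1.21 in saline rats, and from 0.054 to 0.60 in MAA rats at 24 h, against 0.84 to 1.26 in saline rats. None of the 8 was below background on every array. At 12 h Mlh3, Msh5, Smc1b and Ldhc were not called, with -0.50, 0.15, 0.021 and 0.14. Sycp1, Sycp2 and Sycp3 were called lower at 12 h but not at 24 h. Elongating spermatid markers had median changes of 0.28 and 0.30, with 2 of 13 higher at 12 h and 0 of 13 called at 24 h. The part of such markers in the changes of the members was not tested. In whole tissue, fewer cells of a type and less RNA per cell cannot be told apart.

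Ube2n was the member called upward at both times. Its probe 2953 had log ratios of 1.58, 1.63 and 1.95 in MAA rats at 12 h, against 1.02, 1.20 and 1.43 in saline rats. At 24 h they were 1.37, 1.62 and 1.87 in MAA rats, against 0.98, 1.18 and 1.29 in saline rats. All MAA rats lay above all saline rats at both times. Ube2n rose by 0.49 ± 0.10 at each (1.40-fold, adjusted p = 0.0061 and 0.0031, limma), and passed in all 47 fits that left out 1 array. Its changes within dates were 0.43 and 0.50 at 12 h (the second from 1 MAA rat) and 0.62 and 0.53 at 24 h.

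The size of the Ube2n change depended on the scaling. With the testis channel alone it was 0.32 at 12 h (adjusted p = 0.18, limma) and 0.40 at 24 h (adjusted p = 0.025, limma). With the deposited ratio it was 0.38 (adjusted p = 0.039, limma) and 0.35 (adjusted p = 0.048, limma). Median centring gave 0.22 (adjusted p = 0.77, limma) and 0.10 (adjusted p = 0.88, limma). Its other probes were not called: probe 2138 changed by 0.20 at 12 h and 0.30 at 24 h, and probe 17679 by 0.23 and -0.010.

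The third conjugating enzyme, Ube2k, which builds lysine-48 chains, had log ratios of 0.32, 0.67 and 0.84 in MAA rats at 24 h, against 0.075, 0.20 and 0.42 in saline rats. One MAA rat lay within the saline range. The change of 0.36 ± 0.10 passed narrowly (adjusted p = 0.0497, limma), held in 12 of 47 fits that left out 1 array, and turned to -0.055 with median centring. Other conjugating enzymes with known roles in germ cells did not pass. Ube2b, a Rad6 enzyme needed for mouse spermatogenesis, changed by 0.49 ± 0.17 at 4 h (adjusted p = 0.47, limma), on a probe above background in 3 of 6 MAA rats and 1 of 5 saline rats. For the other Rad6 enzyme, Ube2a, probe 22396 was above background in 0 of 6 MAA rats and 1 of 6 saline rats at 24 h, and no fold is given. Its brighter probe 22402, above background on 37 of 47 arrays, changed by 0.46 ± 0.22 at 12 h (adjusted p = 0.32, limma) and by 0.0021 ± 0.21 at 24 h. Ube2c and Ube2s, partners of the anaphase-promoting complex, changed by 0.25 ± 0.12 at 12 h and by -0.24 ± 0.17 at 4 h. The value for Ube2s changed sign under median centring (0.081) and when the testis channel was used by itself (0.038). At 24 h Ube2s had -0.057 (adjusted p = 0.93, limma), and with the testis channel alone -0.46 (adjusted p = 0.049, limma).

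**Figure D3:**
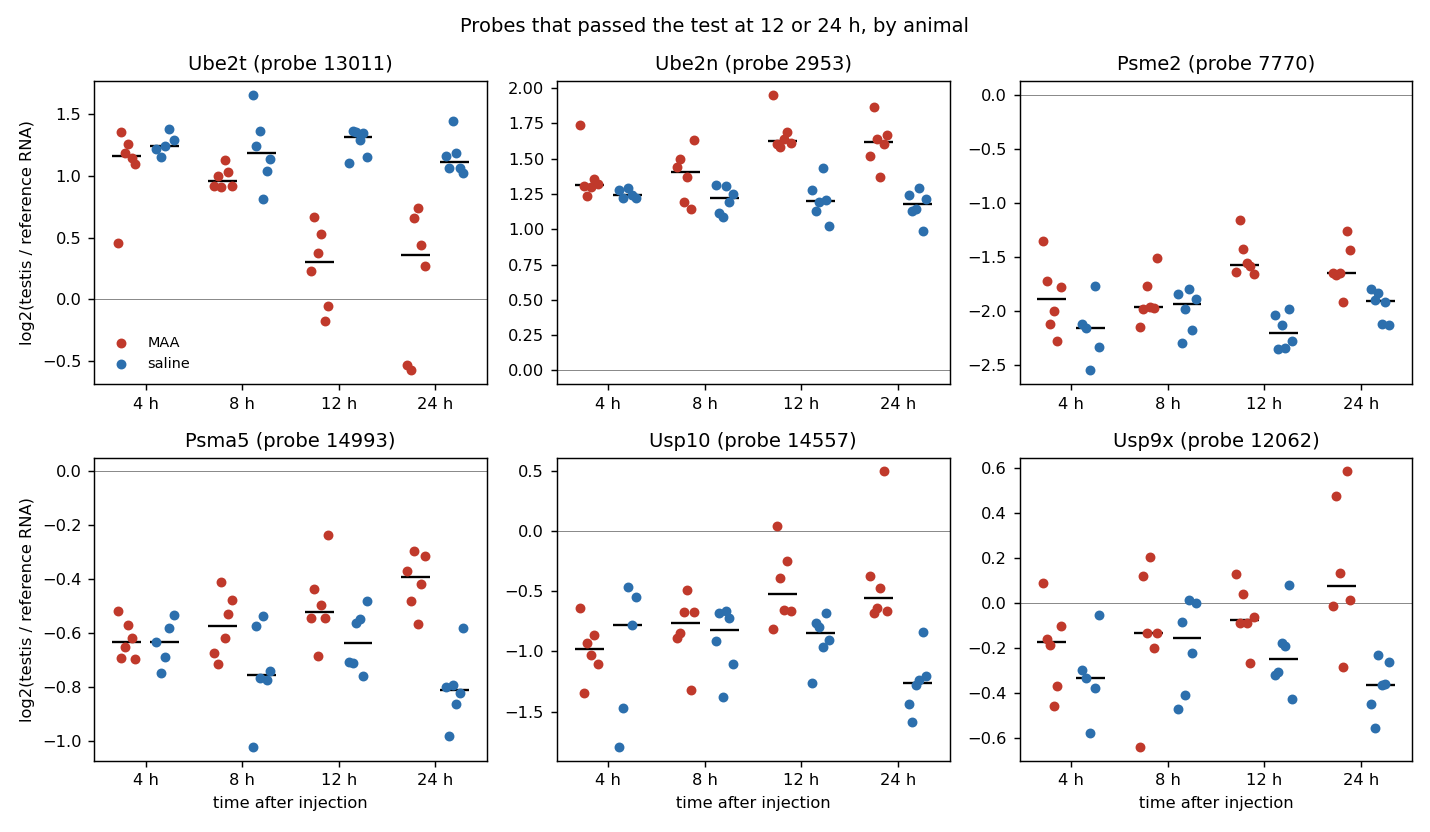
Log2 ratio of testis over reference RNA (y axis) for each rat (points, MAA red and left, saline blue and right of it) at 4, 8, 12 and 24 h (x axis), for 6 of the probes that passed the test. Black lines are group medians. Ube2t at 12 and 24 h lies lower in every MAA rat than in any saline rat, and Ube2n lies higher.

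Promoters are shown for Ube2t and Ube2n, the members called at both times, and for Psma5, the called core subunit. A RefSeq promoter window (build GRCr8, 250 bases before to 50 after the annotated start) was found for 88 of the 97 genes. Letters searched on both strands were CCAAT (the letters bound by NF-Y), GGAAGT (an Ets core), TGACNNNGC (an antioxidant response element core), TTTGAA (a cell cycle homology region), TTCNNNGAA (a Stat site) and TGACGTCA (a cyclic AMP response element). Capitals mark every match, and no matches overlap in the 3 windows. Ube2t lies at chr13:48954916-48955215 (+ strand), Ube2n at chr7:32040959-32041258 (+ strand) and Psma5 at chr2:198584255-198584554 (+ strand).
Ube2t: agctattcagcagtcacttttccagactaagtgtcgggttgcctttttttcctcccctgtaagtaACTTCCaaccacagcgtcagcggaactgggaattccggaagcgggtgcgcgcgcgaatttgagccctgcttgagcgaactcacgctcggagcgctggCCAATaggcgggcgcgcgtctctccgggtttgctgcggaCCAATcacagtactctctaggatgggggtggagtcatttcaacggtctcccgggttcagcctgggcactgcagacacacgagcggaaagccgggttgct
Ube2n: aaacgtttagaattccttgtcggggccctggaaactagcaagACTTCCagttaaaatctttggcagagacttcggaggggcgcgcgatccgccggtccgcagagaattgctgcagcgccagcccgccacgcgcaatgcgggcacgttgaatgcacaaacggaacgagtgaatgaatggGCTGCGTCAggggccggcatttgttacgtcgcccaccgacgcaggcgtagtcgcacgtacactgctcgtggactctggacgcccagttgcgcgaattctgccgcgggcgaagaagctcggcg
Psma5: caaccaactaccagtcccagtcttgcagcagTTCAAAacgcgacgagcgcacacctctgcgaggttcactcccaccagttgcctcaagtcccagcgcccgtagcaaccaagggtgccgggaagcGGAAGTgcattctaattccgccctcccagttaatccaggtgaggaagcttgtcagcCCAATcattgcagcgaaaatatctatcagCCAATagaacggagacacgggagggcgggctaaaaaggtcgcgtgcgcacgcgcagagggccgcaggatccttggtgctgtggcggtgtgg

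The Ube2t window holds CCAAT at -88 and -49 from the start, and the Psma5 window holds it at -70 and -41. CCAAT is in 5 of 6 alpha subunit windows, in 38.6% of the members' windows and in 37.5% of 33469 RefSeq windows of this length. GGAAGT is in all 3 windows shown, in 37 of the 88 members' windows and in 22.6% of all. The windows of Psme2 and Usp10, also called members, hold no match to any of the letters searched and are not shown. TGACNNNGC is in the Ube2n window, in 22.7% of the members' and in 12.1% of all, and TTTGAA is in the Psma5 window, in 13.6% of the members' and in 18.3% of all. A match describes letters only.

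Among the 20S core genes Psma5, an alpha subunit, passed at 24 h. Its log ratio was -0.56, -0.39 and -0.29 in MAA rats, against -0.98, -0.81 and -0.58 in saline rats, and the groups did not overlap. It rose by 0.39 ± 0.099 (SE, 1.31-fold, adjusted p = 0.022, limma), with 0.50 and 0.34 within dates. It passed in 41 of 47 fits that left out 1 array, and lost the call without MAA rat 39, 40, 43 or 48 or saline rat 38 or 45, at adjusted p from 0.0502 to 0.079 (limma). With the testis channel alone the change was 0.43 (adjusted p = 0.0079, limma), with the deposited ratio 0.28 (adjusted p = 0.15, limma) and with median centring 0.021 (adjusted p = 0.98, limma).

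The other alpha subunits did not pass at 24 h, and not all lay near Psma5. Psma1 changed by 0.37 ± 0.11 (adjusted p = 0.053, limma) and Psma4 probe 13999 by 0.41 ± 0.12 (adjusted p = 0.055, limma). The change of Psma2 was 0.41 (adjusted p = 0.059, limma) and that of Psma3 was 0.16 (adjusted p = 0.70, limma). Psma6 was saturated on 44 of 47 arrays, and no fold is given for it. The 6 remaining alpha probes had changes from 0.16 to 0.41 with a median of 0.38, against 0.085 for the 8 constitutive beta probes and 0.082 for all probes above background on every array. The median log ratio of those 6 probes per rat was -0.47, -0.31 and -0.20 in MAA rats at 24 h, against -0.83, -0.53 and -0.48 in saline rats.

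This position of the alpha subunits depended on the scaling. Over all 7 alpha probes, the saturated Psma6 among them, the median change at 24 h was 0.39 with loess (7 of 7 above 0), 0.27 with the deposited ratio (7 of 7), 0.075 with the testis channel alone (5 of 7) and 0.0062 with median centring (4 of 7). The same 4 scalings put the probes above background on all arrays at 0.082, 0.0054, -0.0019 and -0.13, so that the alpha median stood 0.30, 0.27, 0.077 and 0.14 above them. The constitutive beta median was 0.085, -0.043, -0.018 and -0.24. It followed the shift of the probes above background on all arrays, from which it differed by 0.0028, -0.049, -0.016 and -0.11. None of the constitutive beta probes passed at any time. Psmb5, the chymotrypsin-like site, had -0.26 ± 0.11 at 4 h (adjusted p = 0.58, limma), with the sign turned under median centring (0.028).

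**Figure D4:**
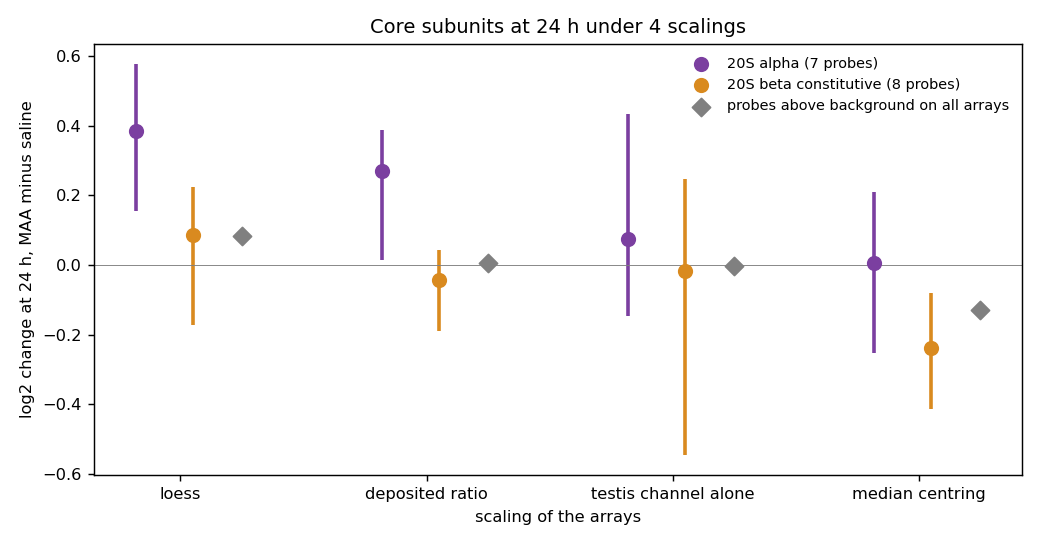
Log2 change at 24 h, MAA minus saline (y axis), under 4 scalings of the arrays (x axis). Circles are medians and bars the lowest to highest probe of the 7 alpha (purple) and 8 constitutive beta (orange) probes, and grey diamonds are the median of all probes above background on every array. The alpha median moves from 0.39 with loess to 0.0062 with median centring. The saturated Psma6 is included and is the highest alpha probe in each scaling but the testis channel alone.

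The activator subunit Psme2 rose at 12 h. Its log ratio was -1.66, -1.57 and -1.16 in MAA rats, against -2.35, -2.20 and -1.99 in saline rats, with no overlap. The change was 0.73 ± 0.16 (1.65-fold, adjusted p = 0.0087, limma), with 0.95 and 0.47 within dates (the second from 1 MAA rat), and it passed in all 47 fits that left out 1 array. At 24 h the change was 0.37 ± 0.15 and did not pass (adjusted p = 0.20, limma). With the testis channel alone the 12 h change was 0.27 (adjusted p = 0.31, limma) and with median centring 0.45 (adjusted p = 0.36, limma). With the deposited ratio it was 0.58 (adjusted p = 0.020, limma). Other interferon-linked members gave no such call. Psmb9 had 0.29 ± 0.14 at 12 h (adjusted p = 0.33, limma), Psmb8 had -0.23 ± 0.15 at 24 h, and Psme1, the partner of Psme2, had -0.32 ± 0.16 at 24 h (adjusted p = 0.35, limma). Psme4, the PA200 activator that takes part in histone removal in mouse spermatids, had 0.27 ± 0.17 at 12 h (adjusted p = 0.48, limma). At 24 h Psme4 had 0.12 (adjusted p = 0.82, limma), and with the testis channel alone 0.47 (adjusted p = 0.022, limma). The 14 measured macrophage and leukocyte markers had a median change of 0.13 at 12 h with 0 called, and their median log ratio per array ran from -1.11 to -0.99 in MAA rats, against -1.48 to -1.10 in saline rats. Their part in the Psme2 change was not tested.

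Of the 19S cap genes, Psmd3 was called at 12 h on a dim probe. It was above background in 1 of 6 MAA rats and 1 of 6 saline rats, with log ratios of -0.85, -0.15 and 0.43 in MAA rats, against -0.14, 0.28 and 0.40 in saline rats. The ranges overlap. The change of -0.61 ± 0.17 (adjusted p = 0.04955, limma) passed in 12 of 47 fits that left out 1 array. It was -0.40 with date as a random block (adjusted p = 0.23, limma), -0.37 with no date term (adjusted p = 0.31, limma) and -0.28 with the testis channel alone (adjusted p = 0.46, limma). Across 10 other settings it passed in 1, whose ratios equal those of the test.

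Psmd6, a lid subunit on a bright probe, passed under other scalings. Its log ratio was -1.11, -0.74 and -0.37 in MAA rats at 12 h, against -0.61, -0.41 and -0.14 in saline rats. At 24 h it was -1.03, -0.63 and -0.51 in MAA rats, against -0.63, -0.37 and -0.21 in saline rats. The ranges overlap at both times. The change was -0.39 ± 0.12 at 12 h (adjusted p = 0.074, limma) and -0.32 ± 0.11 at 24 h (adjusted p = 0.13, limma). With the testis channel alone it was -0.48 and -0.35 (adjusted p = 0.012 and 0.039, limma), and with the deposited ratio -0.52 and -0.46 (adjusted p = 0.020 and 0.032, limma). Median centring gave -0.75 and -0.77 (adjusted p = 0.077 and 0.040, limma).

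Of the other cap genes, Psmd4, a ubiquitin receptor, had -0.15 ± 0.11. None of the 6 ATPase probes passed at any time, and their changes at 24 h ran from -0.10 to 0.25, the highest in Psmc6 (adjusted p = 0.24, limma). None of the 9 Uba probes passed either. Uba7 probe 22000 had -0.48 ± 0.17 at 24 h (adjusted p = 0.12, limma). It was above background in 1 of 6 MAA rats and 6 of 6 saline rats at that time. With the testis channel alone its change was -0.51 (adjusted p = 0.039, limma).

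Of the 62 Usp probes 0 passed at 12 h and 2 at 24 h, against 2.54% and 2.99% of all probes. Usp10, a deubiquitinase of p53, had log ratios of -0.68, -0.56 and 0.49 in MAA rats at 24 h, against -1.58, -1.26 and -0.84 in saline rats, with no overlap. It rose by 0.86 ± 0.18 (SE, 1.82-fold, adjusted p = 0.0050, limma), with 0.77 and 0.94 within dates, and passed in all 47 fits that left out 1 array. MAA rat 47 was the highest, and without it the change was 0.69 (adjusted p = 0.031, limma). The call held with the testis channel alone (0.64, adjusted p = 0.011, limma) and with the deposited ratio (0.73, adjusted p = 0.023, limma). Median centring gave 0.47 (adjusted p = 0.34, limma). The gene's other probe, 10798, went the other way, with -0.27 ± 0.17 (adjusted p = 0.51, limma), above background in 4 of 6 MAA rats.

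Usp9x, an X-linked deubiquitinase, had on probe 12062 log ratios of -0.28, 0.075 and 0.58 in MAA rats at 24 h, against -0.56, -0.37 and -0.23 in saline rats. One MAA rat lay within the saline range. The change was 0.53 ± 0.15 (SE, 1.44-fold, adjusted p = 0.039, limma), with 0.70 and 0.61 within dates. It lost the call without any one of MAA rats 39, 40, 43 and 47 and saline rats 38, 41, 45 and 46, at adjusted p up to 0.15 (limma), and with median centring (0.44), the testis channel (0.32) and the deposited ratio (0.54). Its other 3 probes had 0.16, -0.28 and -0.040 at 24 h. One of them, probe 17061, had 0.56 ± 0.18 at 12 h (adjusted p = 0.092, limma). Over the 35 genes with several probes, all probes of a gene lay on the same side of 0 for 13, 18, 19 and 15 genes at 4, 8, 12 and 24 h.

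The other named deubiquitinases did not pass. Usp28 and Usp21 are named for a small p in these data, and the rest are members with a known testis role. At 12 h Usp28, which stabilises 53bp1 and Myc, had 0.57 ± 0.17 (adjusted p = 0.055, limma). Usp7 had 0.54 ± 0.17 (adjusted p = 0.095, limma) and Usp21 had 0.38 ± 0.12 (adjusted p = 0.087, limma) at that time. With the testis channel alone Usp28, Usp7 and Usp21 had 0.48, 0.31 and 0.0070, and with median centring 0.51, 0.34 and 0.073. Usp16 had 0.17 ± 0.15 and Usp42 had 0.26 ± 0.16 at 12 h, and the sign of Usp42 turned with the testis channel alone (-0.017). Usp1, which acts with Ube2t in the Fanconi anaemia pathway, had 0.35 ± 0.12 at 4 h (adjusted p = 0.47, limma). Usp8, which is linked to the acrosome, had 0.29 ± 0.14 at 4 h. With the testis channel alone Usp1 and Usp8 had 0.0038 and 0.24, and with median centring 0.62 and 0.59. Proteasome-bound Usp14 had 0.19 ± 0.19 at 8 h and Uchl5 had 0.14 ± 0.097 at 24 h. Both changed sign under a scaling, Usp14 with the testis channel alone (-0.060) and Uchl5 with median centring (-0.24). Uchl3 had 0.18 ± 0.10 at 4 h.

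Some lists of other genes of the same pathway gave calls, and each count is read against the 2.54% and 2.99% of all probes called at 12 and 24 h. Where a list had calls, its share lay above that of all probes. The lists are short and were chosen with earlier results of these data known. Of 22 probes of other deubiquitinases, 2 were higher and 1 lower at 12 h, and 3 higher and 1 lower at 24 h. Stambp, an endosomal deubiquitinase, fell by 0.64 ± 0.17 at 12 h and by 0.76 ± 0.16 at 24 h. Atxn3, which trims ubiquitin chains, rose by 0.44 and 0.52, and Otub2 by 0.54 and 0.50. Of 20 probes of the anaphase-promoting complex and its activators, Cdc20, an activator in meiosis, fell by 0.51 ± 0.14 at 12 h and by 0.46 ± 0.13 at 24 h, and Anapc2 rose by 0.54 at 12 h. Of 48 probes of other E3 ligases 2 were higher at 24 h, Rnf19a by 0.42 and Rnf14 by 0.38. Of 16 probes of shuttle factors, Ufd1, part of the Vcp segregase, rose by 0.39 and Sqstm1, an autophagy receptor, fell by 0.56 at 24 h. The adjusted p of these calls ran from 0.0054 to 0.0459 (limma). Of these 14 calls, 4 passed with the testis channel alone and 4 with the deposited ratio, those of Stambp and Cdc20 at both times, and 1 with median centring, that of Stambp at 24 h. Rnf14 turned to -0.026 with median centring. No probe passed at any time in the lists of cullin ligases (26 probes), of proteasome assembly (8) and of ubiquitin-like modifiers (4).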

How the data were processed

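RNA of 47 testes was hybridised to 2-colour Agilent arrays. Each array file holds, per the file headers, raw Cy3 and Cy5 intensity, processed intensity and a log2 ratio made by the authors; their image software and normalization were not stated in any source used here. Raw intensities were loess-normalised within arrays without background subtraction. The log2 ratios were fitted with limma 3.58.1 in R 4.3.3 on 20500 probes (2073 spots without processed values left out), with 8 groups and 12 hybridisation dates as terms. Of the dates 8 held both treatments, 2 MAA only and 2 saline only. Treatment and date are thus partly confounded, and the differences within dates cover only part of the rats of a group. All groups shared 28 residual and 6.75 prior degrees of freedom. The ratios correlated with the deposited ones at 0.98 or more on every array. Gene symbols come from the platform annotation. "Above background" and saturation (65535) use the file's flag and intensity.

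Named are members past the threshold, up to 3 per role by p, members with a known testis role, the 5 smallest p of the F test between times, and up to 3 called genes per outside list. Members, lists and tests were chosen with earlier results of these data known. Promoter letters were searched in RefSeq windows. On data simulated for the 12 h comparison (20500 probes), limma recovered 23 of 100 probes changed by 0.5, 88 of 100 changed by 1 and 82 of 100 changed by -1, so changes of this size can be missed. The p-values set each difference against a residual spread between arrays, 1 per rat, pooled over all groups. That spread holds differences between rats and between hybridisations together, and the number of arrays limits the precision.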

Additional observations from a re-analysis of the deposited data

Results flagged for a closer look

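Of 90 groups examined, 4 held 1 rat far from the other members of its group, which chance gives in about 1 in 20 groups. For Uba7 at 24 h, MAA rat 39 had a log ratio of 0.40, against -0.26 for the next highest. Without it the change was -0.56 (adjusted p = 0.082, limma). For Ube2n probe 2953 at 12 h, MAA rat 27 had 1.95, against 1.69 for the next. This array shares its Cy5 values with another. Without it the change was 0.47 (adjusted p = 0.011, limma). For Ube2t at 24 h, saline rat 41 had 1.44, against 1.18 for the next, and without it the change was -0.84 (adjusted p = 0.012, limma). For Usp10 probe 14557 at 24 h, MAA rat 47 had 0.49, against -0.37 for the next, and the change without it is given above. The cause was not tested for any of them.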

How the results depend on the processing

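No member passed at 4 or 8 h under any alternative run. Median centring gave 1 member at 12 h (Ube2t) and 2 at 24 h (Ube2t and Psmd6, all lower), turned the medians at 4, 8, 12 and 24 h to 0.135, -0.068, -0.049 and -0.124, and gave 1 member (Ube2t) in the F test between times. It called 153 and 193 of all probes at 12 and 24 h, against 520 and 612 in the test. In the F test it called 139 of all probes, against 26. It reversed Psma4 probe 13999 (-0.0028) and Psmb1 (-0.126) at 24 h, Psmb5 (0.028) and Ube2s (0.081) at 4 h, Psmc5 at 8 h (-0.030), and Ube2k (-0.055) and Uchl5 (-0.242) at 24 h. The testis channel alone gave 12 members at 24 h, 4 higher and 8 lower, and 1 in the F test (Ube2t), with medians of -0.0059 at 8 h and -0.043 at 24 h. It called 1075 of all probes at 24 h and 50 in the F test. It reversed Psma4 probe 13999 (-0.086), Psmc4 (-0.0089), Psmc5 (-0.0094), Ube2s (0.038), Usp14 (-0.060) and Usp42 (-0.017). The deposited ratio gave 5 members at 24 h (378 of all probes), 2 higher and 3 lower, and medians of -0.014 at 12 h and -0.026 at 24 h. Testing only probes above background on most arrays gave 9 members at 12 h, 11 at 24 h and 1 in the F test, with fewer probes tested. Of all probes tested there 883, 977 and 149 passed. Fitting only the arrays of one time gave 0 at 12 h and 0 at 24 h (0 and 16 of all probes), with fewer arrays. Quantile scaling of average intensity leaves the ratios as they are. Leaving out 1 array gave 3 to 5 members at 12 h, 3 to 10 at 24 h and 0 to 1 in the F test. The 24 h count was 10 without MAA rat 3 (4 h), and 3 without MAA rat 39, 40 or 43 or saline rat 38 or 45. Of all probes 777 passed without MAA rat 3, and 305 to 541 without one of the others. The medians ran from -0.015 to 0.024 at 4 h, 0.0042 to 0.030 at 8 h, 0.022 to 0.055 at 12 h and 0.019 to 0.060 at 24 h. The causes were not tested. Leaving out both arrays with the same Cy5 values (6 members at 12 h and 5 at 24 h, with 656 and 482 of all probes) and using the series table as labelled were chosen after seeing the data. The series table, most of whose columns hold another array, gave 0 members at 12 h and 0 at 24 h and a median of -0.018 at 8 h. Of the 45 named results 30 were reversed there: Psma1 -0.198, Psmb10 -0.228, Psmb3 -0.113, Psmb5 0.033, Psmb8 0.024, Psmb9 -0.221, Psmc4 -0.454, Psmc6 -0.063, Psmd2 0.035, Psmd3 0.286, Psmd4 0.051, Psmd6 0.226, Psme1 0.129, Psme2 -0.120, Uba6 -0.017, Uba7 0.211, Ube2b -0.334, Ube2c -0.00027, Ube2n at 12 h -0.157, Ube2s 0.099, Ube2t at 12 h 0.481, Uchl3 -0.122, Uchl5 -0.052, Usp1 -0.067, Usp14 -0.105, Usp21 -0.221, Usp42 -0.300, Usp7 -0.208, Usp8 -0.102 and Usp9x probe 17061 -0.092. No paired analysis was possible because the rat numbers do not recur across groups. Dim probes limit what 31 members can show.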
